A study of Homo sapiens with 2 samples.

Results

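miR-424, miR-503, miR-542, miR-450a and miR-450b form a cluster of X-linked microRNA hairpins that lie close together on the minus strand. Its mature arms were picked by name: of 10 arm names given for these hairpins, 8 were rows of the deposited table of 2218 mature miRNAs, namely hsa-miR-424-5p, hsa-miR-424-3p, hsa-miR-503-5p, hsa-miR-503-3p, hsa-miR-542-3p, hsa-miR-542-5p, hsa-miR-450a-5p and hsa-miR-450b-5p. The names miR-450a-3p and miR-450b-3p matched no row. The table lists the 3p arms of miR-450a under numbered names, and these are described apart. Both libraries were made from K562, a human erythroleukemia cell line with features of red cell and megakaryocyte precursors, grown in culture and transduced with lentivirus. The control library (called GFP here) came from cells given a GFP lentivirus, and the other (QKI5) from cells given a lentivirus that overexpresses QKI5, an isoform of Quaking, an RNA-binding protein, that is found in the nucleus. Each group was 1 library. The spread between cultures is therefore unknown, every difference is between single libraries, and every interval covers counting error only.

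A microRNA is cut from a hairpin in a primary transcript, first in the nucleus and then in the cytoplasm, which leaves a short duplex of a 5p and a 3p arm. One arm is usually kept in an Argonaute protein and the other degraded, and the kept arm finds messenger RNAs mainly through its seed, bases 2 to 8. miR-424 and miR-503 belong to the extended miR-15/16 family, known for repressing cyclins and other cell cycle genes, and miR-424 is known to rise when myeloid precursors mature into monocytes. Quaking proteins bind RNA and are known to act on splicing, RNA stability and some primary miRNA transcripts.

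The mature sequences below, from RefSeq on GRCh38.p14, are those on which the results turn, with the seed in capitals and written 5′ to 3′. Of the 8 arms, 7 had a RefSeq mature sequence. The last pair are family members from other loci, shown for the shared seed.
miR-424-5p: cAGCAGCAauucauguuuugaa
miR-424-3p: cAAAACGUgaggcgcugcuau
miR-503-5p: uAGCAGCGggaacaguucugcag
miR-542-5p: uCGGGGAUcaucaugucacgaga
miR-450a-5p: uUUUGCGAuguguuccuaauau
miR-450b-5p: uUUUGCAAuauguuccugaaua
miR-16-5p: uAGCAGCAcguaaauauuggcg
miR-15b-5p: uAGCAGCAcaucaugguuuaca

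miR-424-5p carried the seed of miR-15 and miR-16, which 6 other listed miRNAs also had, and miR-503-5p shared bases 2 to 7 of it. Counted from 1 at the 5′ end and with the base of miR-424-5p first, the substitutions to miR-503-5p over the first 8 bases were C1U and A8G. The 5p arms of miR-450a and miR-450b were near copies that differed at 6 of 22 positions in an ungapped comparison, and only G7A of these lay in the seed. No other listed miRNA with a RefSeq sequence had the same 7-base seed as miR-424-3p, miR-503-5p, miR-503-3p, miR-542-5p, miR-450a-5p or miR-450b-5p.

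The hairpins span 6527 bases. On GRCh38.p14, RefSeq places MIR424 at chrX:134546614-134546711, MIR503 at chrX:134546328-134546398, MIR542 at chrX:134541341-134541437, MIR450A1 at chrX:134540341-134540431 and MIR450B at chrX:134540185-134540262, all on the minus strand. The authors mapped to hg19, so these positions serve for annotation and order only. In GENCODE release 29, MIR424 overlapped an exon at the start of the long non-coding gene MIR503HG by 19 bases, MIR503 lay in an intron of that gene, and MIR542, MIR450A2, MIR450A1 and MIR450B lay past its end on the same strand, the nearest of them 1900 bases beyond. MIR424 and MIR503 were 215 bases apart, 4890 bases separated MIR503 from MIR542, and 733 bases separated MIR542 from MIR450A2. The MIR424 hairpin is shown because its arms differed most in the comparison that follows, with the 5p and then the 3p mature arm in capitals.
MIR424 hairpin: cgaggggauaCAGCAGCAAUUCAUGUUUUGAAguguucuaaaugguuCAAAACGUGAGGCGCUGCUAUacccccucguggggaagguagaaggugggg

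Levels are in RPM, reads per 1000000 reads of the library, and each value was a whole number of reads. The GFP library rested on 23262340 reads and the QKI5 library on 6553945, a depth ratio of 3.55 that makes the GFP values the more precise. The QKI5 transcript was not analysed here. Of the miRNAs fixed as cell type markers, the erythroid ones summed to 3141 RPM with QKI5 and 3907 RPM with GFP, and the monocyte or granulocyte ones to 20863 and 19084 RPM. The erythroid sum was mostly miR-451a (ratio 0.782), and miR-144-3p stood at 0.535, while miR-144-5p and miR-486-5p went the other way, at 1.61 and 1.15. The epithelial markers summed to 70.8 and 63.9 RPM and the neuronal ones to 332 and 378 RPM. The muscle markers summed to 1.98 RPM with QKI5 and 0.258 RPM with GFP, with miR-1 at 13 and 4 reads (11.5-fold higher, 3.56 to 48.6) and miR-206 at 0 and 2. The liver marker miR-122-5p had 0 reads with QKI5 and 1 with GFP. The 5 endothelial or stromal markers summed to 41250 RPM with QKI5 and 16952 RPM with GFP, which was mostly miR-126-3p (2.69-fold higher), while miR-145-5p stood at a ratio of 0.994 and miR-214-3p at 0 reads with QKI5 and 1 with GFP. The other 2 endothelial or stromal markers, miR-143-3p and miR-199a-3p, had 11 and 17 reads with QKI5 and 7 and 33 with GFP. The part of these markers in the cluster's values was not tested.

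The cluster was a minor part of the miRNA pool, and its total differed little between the libraries as deposited. Its 8 arms had 2217 reads with QKI5 and 7304 with GFP, or 338 RPM against 314 RPM, a ratio of 1.08 (exact conditional binomial 95% interval 1.03 to 1.13). The direction of this total depended on the scaling, with a ratio of 1.20 when scaled by the totals over listed miRNAs, 0.966 under quantile normalization and 0.693 under trimmed mean scaling. They made up 0.0569% of the reads on listed miRNAs with QKI5 (Wilson 95% interval 0.0545% to 0.0593%) and 0.0474% with GFP (0.0463% to 0.0485%). Within this total the arms diverged: miR-424-5p and miR-542-3p were higher with QKI5, and miR-424-3p, miR-450a-5p and miR-450b-5p were lower. miR-424-5p and miR-503-5p together held 89.8% of the cluster's reads with QKI5 and 84.3% with GFP.

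hsa-miR-503-5p was the most abundant arm in both libraries and was near its control level as deposited. It was at 172 RPM in the QKI5 library (exact Poisson 95% interval 162 to 183) and 186 RPM with GFP (180 to 191), a ratio of 0.928 (0.868 to 0.991). The interval lay just below 1, but the log2 ratio of -0.11 turned to 0.047 when each column was scaled by its total over listed miRNAs and to -0.74 with trimmed mean scaling. The other arm, hsa-miR-503-3p, had 3 reads with QKI5 and 8 with GFP, a ratio of 1.33 with an interval from 0.227 to 5.55, so no difference was detectable at this depth.

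hsa-miR-424-5p, the other abundant arm, was higher with QKI5. It was at 132 RPM with QKI5 (123 to 141) and 78.9 RPM with GFP (75.3 to 82.6), which is 1.67-fold higher (1.54 to 1.81), and it rested on 862 and 1835 reads. Its opposite arm went the other way: hsa-miR-424-3p was at 3.05 RPM with QKI5 (1.86 to 4.71) and 9.80 RPM with GFP (8.57 to 11.2), 3.21-fold lower (2.03 to 5.36), on 20 and 228 reads. Neither pair of intervals overlapped between the libraries. Both log2 ratios, 0.74 and -1.64, kept their sign under all 8 alternatives of pseudocount, scaling, thinning and GC content that were run, but that of miR-424-5p was only 0.10 with trimmed mean scaling.

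From miR-542, whose 3p arm is known to target the survival gene BIRC5, the 3p arm was higher with QKI5 and the 5p arm could not be told from its control level. hsa-miR-542-3p was at 10.1 RPM with QKI5 (66 reads) and 5.72 RPM with GFP (133 reads), 1.76-fold higher (1.29 to 2.38), and its log2 ratio of 0.80 was 0.18 with trimmed mean scaling. hsa-miR-542-5p was at 7.93 RPM (52 reads) and 7.69 RPM (179 reads), a ratio of 1.03 (0.742 to 1.41), and its log2 ratio of 0.04 turned negative under 5 of the 8 alternatives, as low as -0.58 with trimmed mean scaling.

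Both miR-450 5p arms, from the hairpins farthest downstream, were lower with QKI5. hsa-miR-450a-5p, whose sequence is present in the MIR450A1 and MIR450A2 hairpins, so that the source hairpin of a read is unknown, was at 7.02 RPM with QKI5 (46 reads) and 17.2 RPM with GFP (399 reads), 2.44-fold lower (1.80 to 3.39). hsa-miR-450b-5p was at 5.95 RPM (39 reads) and 8.68 RPM (202 reads), 1.46-fold lower (1.03 to 2.11). The Poisson intervals of the 2 libraries did not overlap for miR-450a-5p (5.14 to 9.36 and 15.5 to 18.9 RPM) and did overlap for miR-450b-5p. The log2 ratio of miR-450b-5p, -0.53, stayed negative under all 8 alternatives, but was -0.04 once the linear dependence on GC content was taken out.

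**Figure D1:**
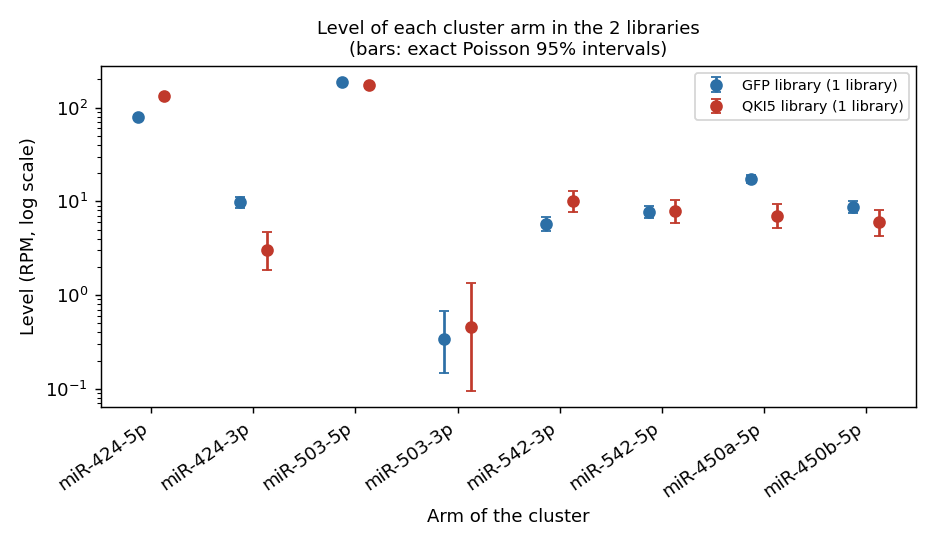
Level of each of the 8 cluster arms (x axis) in RPM on a log scale (y axis), with 1 point per library (blue GFP, red QKI5) and exact Poisson 95% intervals as bars. miR-503-5p and miR-424-5p stand above the other 6 arms in both libraries, and the bars of the libraries are apart for miR-424-5p, miR-424-3p, miR-542-3p and miR-450a-5p.

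The order of the arms by level was the same at the top and changed below it. Mature arms are of nearly equal length (21 to 23 bases), so RPM values were set side by side between arms, although ligation and sequencing can favour some sequences. In both libraries miR-503-5p came first and miR-424-5p second, with intervals apart. With GFP, miR-450a-5p came next, above miR-424-3p, miR-450b-5p, miR-542-5p and miR-542-3p, of which each neighbouring pair had overlapping intervals. With QKI5, miR-542-3p came next, followed by miR-542-5p, miR-450a-5p, miR-450b-5p and miR-424-3p, again with overlapping intervals between neighbours. miR-503-3p was last in both, with 0.458 RPM against 0.344 RPM in the GFP library.

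Counted against a 2-fold limit, the cluster gave 0 arms higher and 2 lower with QKI5. The count covers the 7 arms with a mean of at least 1 RPM, which leaves out miR-503-3p, and uses log2(RPM + 0.153), a pseudocount that is the value of 1 QKI5 read. The 2 lower arms were miR-424-3p and miR-450a-5p, at log2 ratios of -1.64 and -1.27. Over all 604 listed miRNAs past the same filter, 21.2% were higher by 2-fold or more and 7.45% lower. These background shares depended on the scaling: higher values made up 74% of the calls as deposited, 50.3% under quantile normalization and 24.4% under trimmed mean scaling, where 24.2% of miRNAs were lower and 3 cluster arms were. Among the 7, miR-424-3p alone had a counting interval entirely past 2-fold, against 3.15% of all 604 on the lower side and 13.2% on the higher side. With the GC trend removed, miR-424-5p came just past 2-fold higher and miR-450a-5p stood at -0.89.

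The median log2 ratio of the 7 arms was -0.11, beside 0.24 over the 604 miRNAs. Relative to that common shift, miR-542-3p and miR-424-5p lay above by 0.56 and 0.49. The other 5 arms lay below it, miR-542-5p by -0.20, miR-503-5p by -0.35, miR-450b-5p by -0.78, miR-450a-5p by -1.52 and miR-424-3p by -1.88. The median of all 604 itself ran from -0.38 with trimmed mean scaling to 0.40 when scaled by the totals over listed miRNAs. Tested on the recovered reads, an exact binomial test (Benjamini-Hochberg adjustment, 0.05), which compares these 2 libraries and not the conditions, called 426 of 1995 miRNAs with a read (14.5% higher and 6.82% lower with QKI5). It called 4 of the 8 arms, miR-424-5p and miR-542-3p as higher and miR-424-3p and miR-450a-5p as lower. The 1995 include many miRNAs with few reads, which such a test can hardly call, whereas 7 of the 8 arms passed 1 RPM. The 2 shares are therefore not alike, and the share called among the 604 was not computed.

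**Figure D2:**
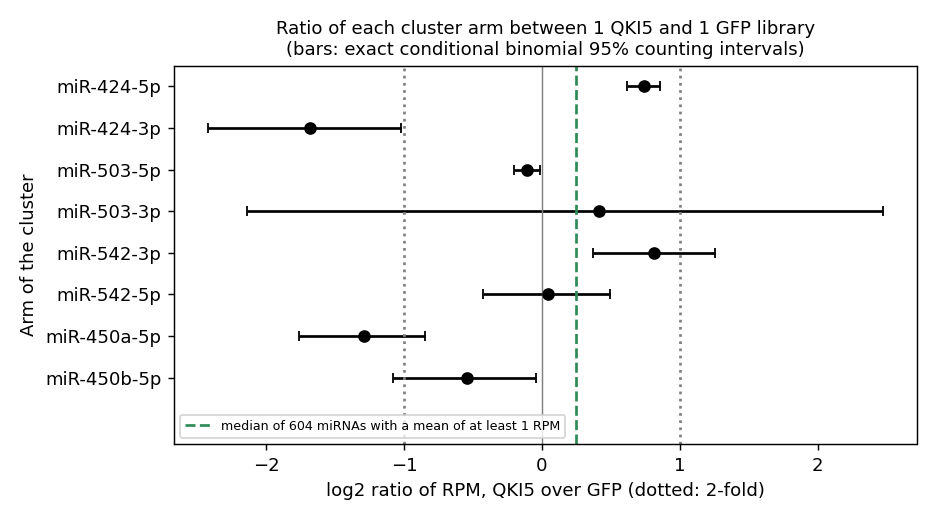
Log2 ratio of RPM in the QKI5 over the GFP library (x axis) for each of the 8 cluster arms (y axis), as points with exact conditional binomial 95% counting intervals. Dotted lines mark 2-fold and the dashed line the median of 0.24 over 604 miRNAs. The interval of miR-424-3p alone lies wholly past a dotted line, and that of miR-503-3p, which rests on 11 reads, crosses both.

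The use of the 2 arms of the miR-424 hairpin differed between the libraries, a comparison within a hairpin in which the scaling of the columns cancels. There were 43.1 reads of miR-424-5p for each read of miR-424-3p with QKI5 and 8.05 with GFP. The 3p arm thus made up 2.27% of the hairpin's reads with QKI5 (Wilson 95% interval 1.47% to 3.48%) and 11.1% with GFP (9.77% to 12.5%). The odds ratio was 5.35 (exact conditional 95% interval 3.36 to 9.0), and on the log2 scale, with 0.5 reads added to each arm, the difference was 2.39.

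miR-542 shifted less, and toward its 3p arm. That arm held 55.9% of the hairpin's reads with QKI5 (46.9% to 64.6%) and 42.6% with GFP (37.3% to 48.2%), an odds ratio of 0.586 for 5p over 3p (0.373 to 0.917) and a log2 difference of -0.77. For miR-503 the 3p arm was at 0.265% of the reads with QKI5 (0.0902% to 0.776%) and 0.185% with GFP (0.0937% to 0.364%), with overlapping intervals and a log2 difference of -0.66.

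Differences in arm use were common across these libraries. There were 225 hairpins listed with both arms and at least 10 reads on each, summed over the 2 libraries. Of these, 39.6% differed at least 2-fold, with a median absolute log2 difference of 0.77. By size the difference of miR-424 was in place 13 of the 225, that of miR-542 in place 112 and that of miR-503 in place 128. With at least 30 reads on each arm, summed in the same way, miR-424 was in place 8 of 169 hairpins, of which 35.5% differed 2-fold. An arm could pass on few QKI5 reads, as miR-503-3p did with 3, beside 8 with GFP. Counting error was not removed from these shares and places. GC content was 36.4% in miR-424-5p and 52.4% in miR-424-3p, and across 535 miRNAs the log2 ratio rose by 0.25 for each 10 points of GC content. With this linear trend removed, the log2 ratio was 1.003 for miR-424-5p and -1.77 for miR-424-3p, beside 0.74 and -1.64 as deposited. The part of GC content in the arm difference was not tested beyond this.

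**Figure D3:**
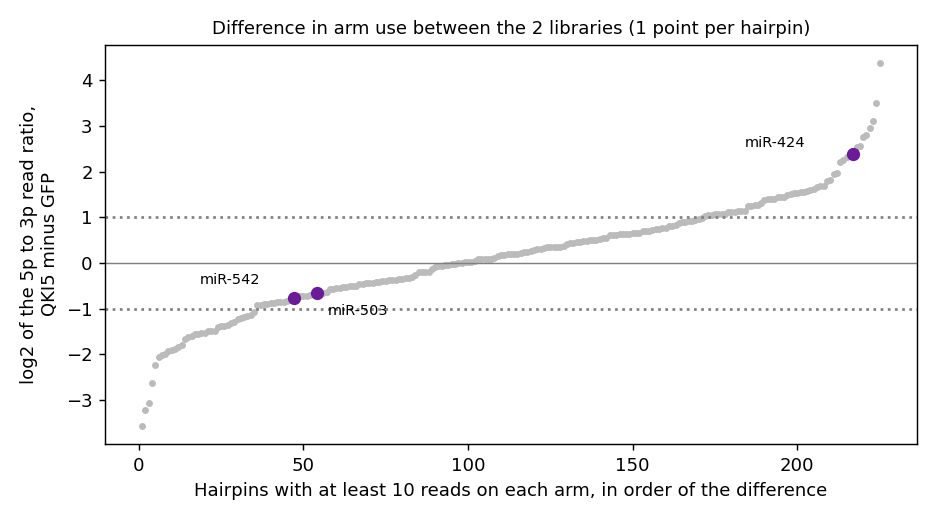
Difference between the libraries in the log2 ratio of 5p to 3p reads (y axis, QKI5 minus GFP) for 225 hairpins placed in order of that difference (x axis), 1 point per hairpin, with miR-424, miR-503 and miR-542 in purple. miR-424 lies near the upper end at 2.39, and miR-503 and miR-542 lie between the dotted 2-fold lines at -0.66 and -0.77.

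The same values can be put as read ratios between arms of different hairpins, which are free of scaling. These pairs were chosen after the values were seen, so they describe the divergence and add no support to it. There were 0.764 reads of miR-424-5p per read of miR-503-5p with QKI5 and 0.425 with GFP, a 1.80-fold difference (exact conditional 95% interval 1.62 to 2.0) between hairpins 215 bases apart. For miR-542-3p per read of miR-450a-5p the values were 1.43 and 0.333, a 4.30-fold difference (2.75 to 6.74). For the near copies miR-450b-5p per miR-450a-5p they were 0.848 and 0.506, a 1.68-fold difference (1.03 to 2.72), and the sources used here do not say how a read matching both was counted.

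Such spread within a genomic cluster was seen elsewhere too, and this cluster was near its upper end. Of 17 groups of hairpin genes whose neighbouring starts were at most 10000 bases apart and which had at least 4 arms at a mean of 1 RPM, the SD of the log2 ratio across arms ran from 0.33 to 0.94, with a median of 0.62. The cluster from MIR450B to MIR424 had an SD of 0.93 over 7 arms, second to the 4 arms of MIR642A and MIR642B. The large 14q32 group from MIR379 to MIR656 came next at 0.87 over 67 arms. Strand was ignored in forming the groups, so hairpins of 1 group need not share a transcript. Arms whose hairpins lie in more than 1 group were left out. Counting error was not removed from these SDs, and 6 of the 7 arms here rested on under 1000 reads in the QKI5 library.

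**Figure D4:**
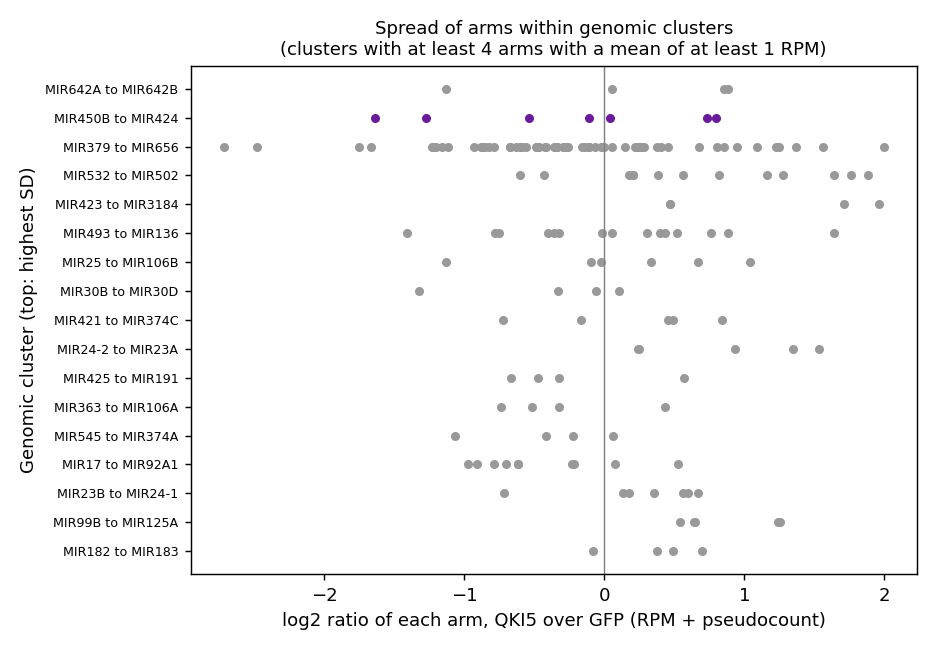
Log2 ratio of each arm (x axis, QKI5 over GFP, on RPM with the pseudocount) in the 17 genomic clusters with at least 4 arms at a mean of 1 RPM (y axis, highest SD at the top), 1 point per arm. The 7 purple points of MIR450B to MIR424 run from -1.64 to 0.80, on both sides of 0.

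Of the 6 seed relatives of miR-424-5p from other loci, miR-16-5p, miR-15a-5p and miR-15b-5p were far more abundant than miR-424-5p, and their ratios lay on both sides of 1. Of their 5p arms, miR-16-5p stood at 12705 RPM with QKI5 against 7083 RPM in the control library, a ratio of 1.79 (1.78 to 1.81). The reads of miR-424-5p per read of miR-16-5p with QKI5 were 0.930 of those with GFP (0.856 to 1.01), an interval that includes 1. miR-15a-5p was at 1860 and 2491 RPM, a ratio of 0.747 (0.732 to 0.762), and miR-15b-5p at 848 and 1658 RPM, a ratio of 0.512 (0.498 to 0.526), so the miR-424-5p reads per miR-15b-5p read were 3.26 times as many with QKI5 (2.99 to 3.55). miR-195-5p had 27 and 41 reads, a ratio of 2.34 (1.38 to 3.89). miR-497-5p had 4 reads with QKI5 and 18 with GFP, and miR-6838-5p 2 and 8.

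Identical seeds thus went with ratios on both sides of 1, from 0.512 for miR-15b-5p to 1.79 for miR-16-5p among those above 100 RPM. Of the 13 listed arms of these relatives, 8 reached a mean of 1 RPM, 1 (miR-195-5p) was past 2-fold on the higher side and 0 on the lower side, and 4 lay on each side of 0. Among the other arms, miR-15a-3p was at a ratio of 0.579, miR-15b-3p at 1.34, miR-16-1-3p at 0.608 and miR-16-2-3p at 1.56. miR-497-3p had 2 reads with QKI5 and 3 with GFP. miR-195-3p had 0 reads with QKI5, which allows up to 0.458 RPM, and 4 with GFP, and miR-6838-3p had 1 read with QKI5 and 0 with GFP, which allows up to 0.129 RPM.

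miR-424-5p and miR-503-5p supplied a small share of the reads of these 8 related 5p arms (the pair and the 6 relatives). They made up 1.93% of those reads with QKI5 (1991 of 103040, Wilson 95% interval 1.85% to 2.02%) and 2.30% with GFP (6155 of 267475, 2.25% to 2.36%), with miR-16-5p the main source in both libraries.

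**Figure D5:**
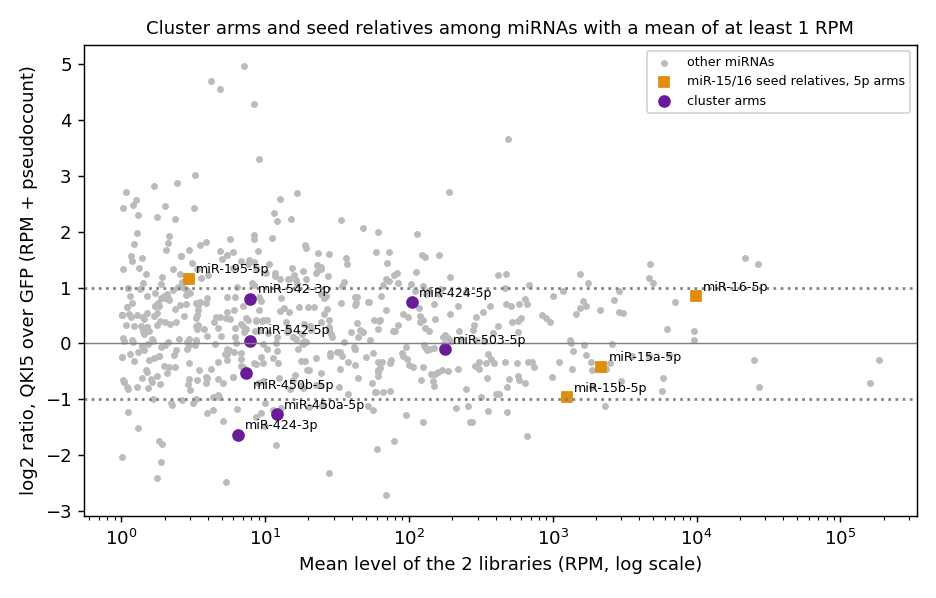
Log2 ratio of QKI5 over GFP (y axis) against the mean level of the 2 libraries in RPM (x axis, log scale) for 604 miRNAs with a mean of at least 1 RPM, with 7 cluster arms in purple and 4 miR-15/16 seed relatives in orange. The cluster arms lie on both sides of 0 and 5 of them near 10 RPM, and miR-16-5p and miR-15b-5p, with the same seed, stand at 0.84 and -0.97.

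Other lists were set beside the cluster with the same 2-fold limit, for which the shares over all 604 miRNAs were 21.2% higher and 7.45% lower as deposited. In the X-linked cluster of miR-106a to miR-363, the nearest list by chromosome, 0 of 4 arms at a mean of 1 RPM passed 2-fold in either direction and the median log2 ratio was -0.42. Of 10 arms of myeloid miRNAs 1 was at least 2-fold higher, miR-146a-5p at 88.8 against 43.0 RPM, and 0 lower, with a median of 0.09. Of 6 arms of erythroid miRNAs 0 passed 2-fold in either direction, with a median of 0.16. The 5 miRNAs nearest to miR-503-5p in both level and ratio, by Euclidean distance of log2(RPM + 0.153) over the 2 libraries, were miR-7-5p (distance 0.0892), miR-410-3p (0.0937), miR-486-3p (0.175), miR-30e-5p (0.177) and miR-323a-3p (0.183). With only 2 libraries this likeness describes levels and not a shared pattern across conditions.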

How the data were processed

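Per the labels' protocols, small RNA was isolated with a mirVana kit, libraries were made with an Ion Total RNA-Seq kit and sequenced on an Ion Proton system. Bowtie 0.12.3 and hg19 are listed in the submitters' processing notes. The sources used here do not give the miRNA annotation, the mismatches or how reads matching several miRNAs were counted. The values the authors deposited are RPM, although the table is named for RPKM: in each column 100.0% of the values above 0 were whole multiples of 1 step, within 0.1 of a read (0.0430 RPM per read for GFP and 0.153 for QKI5), so reads were recovered.

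Ratios carry exact conditional binomial intervals, levels exact Poisson intervals and shares Wilson intervals, all at 95%. They cover counting error only, since the reads carry no molecular identifiers and may be copies of fewer molecules. A count of 0 was given an upper limit of 3 reads. The 2-fold limit applied to miRNAs with a mean of at least 1 RPM. The text names every arm of the cluster and of the miR-15/16 seed list, and the 5 miRNAs nearest to the most abundant cluster arm. The members and lists (seed relatives, miR-106a to miR-363, myeloid, erythroid, cell type markers) were chosen with earlier results of these data known. Of 2218 listed miRNAs, 1946 had a RefSeq mature sequence. With 1 library per group no dispersion could be estimated, so no count model was used. Alternatives covered the pseudocount, scaling, level filter, fold limit, thinning of GFP reads, arm filters, a binomial test of the reads and, added after seeing the data, removal of a GC trend. The computations used Python 3.11.15, numpy 2.4.6, scipy 1.17.1, pandas 2.3.3 and statsmodels 0.14.6, and were tested on simulated data.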

Additional observations from a re-analysis of the deposited data

How the results depend on the processing

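No paired analysis was possible because each group has 1 library. The median log2 ratio of the cluster arms, -0.11 as deposited, was 0.047 when scaled by the totals over listed miRNAs, -0.22 when rescaled without the 10 most abundant miRNAs, -0.32 under quantile normalization, -0.74 under trimmed mean scaling and -0.21 with the GC trend removed. In the same order the median of the 4 seed relatives (5p arms at a mean of 1 RPM), 0.21 as deposited, was 0.37, 0.10, 0.012 and -0.43, without a GC value, and it was 0.18 with 10 times the pseudocount. The trimmed mean was unweighted over the 1265 miRNAs with reads in both libraries, low counts included. A read is worth 0.153 RPM with QKI5 and 0.043 RPM with GFP, so equal low read counts gave a ratio above 1. The part of this depth difference in the trimmed mean was not tested. The count of arms at least 2-fold higher, 0, became 2 at a limit of 1.5-fold and 1 with the GC trend removed. The exact binomial test of reads, which has no fold limit, called 2 arms as higher. The count of arms at least 2-fold lower, 2, became 1 among the 3 arms with a mean of at least 10 RPM and 1 with the GC trend removed. miR-542-3p had no RefSeq sequence and is left out with the GC trend removed. The count of hairpins with a 2-fold difference in arm use, 1, was the same under all 3 of its alternatives. Depth limits miR-503-3p most, at 3 reads with QKI5.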

Other observations

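The 3p arms of miR-450a, listed under numbered names, were near the limit of detection. miR-450a-1-3p had 2 reads with QKI5 and 5 with GFP, and miR-450a-2-3p had 4 and 19, against 46 and 399 reads of miR-450a-5p, so the 5p arm was the main product of these hairpins in both libraries.

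The hairpins were searched on their own strand for the core of the sequence known to be bound by Quaking proteins, as ACUAAC or ACUAAU. It was in 0 of the 5 hairpins of the cluster with a RefSeq sequence, and in 1.54% of all 1560 hairpins (median length 80 bases). The shorter UAAC or UAAU, which is contained in the longer motif, was in 3 of the 5 (MIR542, MIR450A1 and MIR450B) and in 25.1% of all hairpins. A match is a description of these letters and not a binding site.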
